A study of Homo sapiens with 12 samples.

Results

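The mitochondrial ribosomal proteins are described here as the rows of the normalised table whose symbol is MRPL or MRPS followed by digits and without a hyphen. This rule, which uses names and no measured value, took 77 of the 12616 genes listed, 48 with an MRPL symbol and 29 with an MRPS symbol. Established human cutaneous melanoma lines, MeWo and SkMel28, carried a doxycycline (Dox) inducible hairpin against MITF, the transcription factor of the melanocyte lineage. Cells received 0 or 1 µg/ml Dox for 8 days with the medium renewed every other day, and 3 libraries of mRNA 3′ ends were made for each of the 4 groups. The groups were MeWo control (hairpin present, no Dox), MeWo Dox, SkMel28 control and SkMel28 Dox. Control cells therefore held the hairpin too, and no group received Dox without it, so that an effect of Dox on its own and an effect of the hairpin cannot be told apart. The labels give EMEM as the medium of MeWo and RPMI as that of SkMel28, while the methods of the study name RPMI for human melanoma lines in general, so whether the lines also differed in medium is not settled here. The labels number the 3 libraries of a group without saying whether they came from separate cultures, and p-values measure the spread between these libraries only.

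Mitochondria translate the few mRNAs of their own genome, which encode core subunits of the respiratory chain and ATP synthase, on a ribosome of their own. Its RNAs come from mitochondrial DNA, but all its proteins are encoded in the nucleus, made in the cytosol and imported, so that subunits from many chromosomes have to be supplied together. A large subunit forms peptide bonds and a small subunit reads the mRNA. Some proteins of each descend from bacterial ribosomes and others were added in mitochondria.

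Of the 77 rows, 29 encode large-subunit proteins of universal or bacterial families and 20 encode large-subunit proteins particular to mitochondria, among them MRPS30 and MRPS18A, which sit in the large subunit despite their symbols. For the small subunit there are 15 of universal or bacterial families and 10 particular to mitochondria. MRPS36 is a component of the 2-oxoglutarate dehydrogenase complex, not of the ribosome, and MRPL45P2 and MRPS31P5 are pseudogene copies of MRPL45 and MRPS31, with which they can share reads. MRPL45P2 had 0 to 9 reads per library and MRPS31P5 17 to 76. These 3 rows were kept in the counts and in the total level below and left out of the levels of the subunits.

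MITF acts on genes through E-boxes, most often CACGTG or CATGTG, so the RefSeq promoter windows of the members (GRCh38.p14, 250 bases before to 50 after an annotated start, any window of a gene) were read for these letters on both strands. Windows were present for 67 of the 77 symbols. CACGTG stood in the windows of 9 members (13.4%), against 13.0% of 9527 listed genes, and CATGTG in those of 4 (5.97%), against 10.1%. TCACGTGA, the flanked form that contains CACGTG, stood in 3 (4.48%), against 2.32%. CCGGAAG, the core bound by the ETS family, which includes the GABP factor known for mitochondrial genes, stood in 29 (43.3%), against 22.5% of listed genes and 12.2% of all 27305 genes with windows. The motif of NRF1, a regulator of mitochondrial genes, stood in 9 (13.4%), against 13.5% of listed genes. These matches describe letters only and show no binding.

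The 250 bases before a start are shown for MRPS33 (chr7:141014680-141014929, minus strand) and MRPL48 (chr11:73787624-73787873, plus strand), members that fell with Dox in MeWo, and for MRPL32 (chr7:42932126-42932375, plus strand), which rose in SkMel28. MRPS33 was the only one of the 9 CACGTG holders called in either line. Another window of MRPS33, at a different annotated start and not printed, held CCGGAAG. The stretches are written 5′ to 3′ on the gene's strand. Capitals mark a match, on either strand, to the E-box or ETS letters given above.
MRPS33: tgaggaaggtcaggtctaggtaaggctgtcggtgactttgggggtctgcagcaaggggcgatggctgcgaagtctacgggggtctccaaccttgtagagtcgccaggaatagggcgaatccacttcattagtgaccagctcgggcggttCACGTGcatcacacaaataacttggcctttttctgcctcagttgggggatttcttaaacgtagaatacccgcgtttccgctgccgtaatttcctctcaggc
MRPL48: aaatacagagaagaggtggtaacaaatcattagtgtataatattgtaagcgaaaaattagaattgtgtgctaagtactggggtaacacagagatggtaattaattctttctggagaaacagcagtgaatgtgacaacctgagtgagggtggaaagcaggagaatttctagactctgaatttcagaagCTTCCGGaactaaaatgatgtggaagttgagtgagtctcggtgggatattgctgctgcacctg
MRPL32: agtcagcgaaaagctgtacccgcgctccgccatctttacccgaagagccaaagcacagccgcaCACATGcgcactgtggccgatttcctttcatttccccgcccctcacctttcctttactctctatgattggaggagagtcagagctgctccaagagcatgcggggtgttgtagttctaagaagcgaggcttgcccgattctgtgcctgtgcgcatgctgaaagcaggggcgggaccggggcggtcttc

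Shorter stretches are shown for MRPL24 (chr1:156741062-156741109, minus strand), the member whose change differed between the lines, with CATGTG in capitals, and for the 3 holders of TCACGTGA, MRPL37 (chr1:54199976-54200023, plus strand), MRPS18C (chr4:83455858-83455905, plus strand) and MRPS2 (chr9:135499888-135499935, plus strand), with those 8 letters in capitals.
MRPL24: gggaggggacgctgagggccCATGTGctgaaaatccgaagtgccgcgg
MRPL37: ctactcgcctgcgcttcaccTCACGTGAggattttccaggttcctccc
MRPS18C: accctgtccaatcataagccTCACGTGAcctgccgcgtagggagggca
MRPS2: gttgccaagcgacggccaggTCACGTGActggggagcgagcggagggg

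Each library held 2568190 to 3714610 reads over genes and spike-ins, and members took 13323 to 21590 of them, 0.519 to 0.633% of the gene reads. MITF read 657, 663 and 708 normalised RPM (reads per gene scaled to a common library size) in MeWo control against 451, 354 and 371 with Dox, and 861, 739 and 792 in SkMel28 control against 575, 578 and 552 with Dox. It was lower in all 6 Dox libraries than in any control of the same line and fell by 0.79 log2 units in MeWo (SE 0.11, adjusted p = 6.49e-05) and by 0.49 in SkMel28 (SE 0.11, adjusted p = 0.00705). MeWo Dox replicate 1 had the highest MITF of its group and stood apart from its mates over all genes, with chi-square per degree of freedom 18.9 and 16.5 against them where no other pair of replicates exceeded 5.77. Counts of called members, and the MeWo changes of the members named by the rule, are therefore also given without it. All 7 melanocyte lineage markers looked for (MITF, SOX10, PMEL, MLANA, TYR, DCT and TYRP1) were listed, and of 9 keratinocyte, fibroblast, endothelial and leukocyte markers only DCN was listed, at no more than 2.87 normalised RPM in any library.

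Levels below are in normalised RPM. A 3′ end library gives about 1 read per transcript, so these levels are not divided by gene length. The median member stood at 49.9 in MeWo control, 47.4 in MeWo Dox, 46.3 in SkMel28 control and 43.2 in SkMel28 Dox. The highest levels over all libraries were those of MRPS27, an RNA-binding protein of the small subunit, MRPS21, MRPS18B, MRPL20 and MRPS25. MRPS27 read 447, 435 and 396 in MeWo control, 405, 409 and 352 in MeWo Dox, 339, 326 and 374 in SkMel28 control and 254, 264 and 327 in SkMel28 Dox. It was highest in MeWo control and lowest in SkMel28 Dox by the mean, and control and Dox libraries overlapped in both lines. The lowest levels were those of MRPL45P2, MRPL39, MRPL50, MRPS31 and MRPS28. For MRPL39 and MRPL50, both particular to mitochondria, group means lay between 5.09 and 9.47, on 5 to 47 and 12 to 38 reads per library.

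Summed over the members, mRNA was lower with Dox in SkMel28, and in MeWo the groups with and without Dox overlapped. In MeWo the sum over all 77 rows was 6217, 6002 and 5790 in control and 5347, 6470 and 5988 with Dox, with means of 6003 ± 213 and 5935 ± 563 (SD, n = 3). Control and Dox libraries overlapped, and the lowest of the 6 was MeWo Dox replicate 1. In SkMel28 the sum was 5072, 5083 and 5239 in control and 4400, 4453 and 4604 with Dox, with means of 5131 ± 93.3 and 4486 ± 106, so that it fell by 12.6% and the groups did not overlap. As a share of gene reads, before scaling to the effective library size, the members fell by 9.42% in SkMel28, without overlap. In MeWo this share fell by 4.47%, with overlapping groups. An exact permutation test of 3 against 3 libraries cannot go below p = 0.10, and none is given. In bulk RNA, fewer cells of one kind and less RNA per cell cannot be told apart.

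The large subunit summed to 2966 ± 71.5 in MeWo control, 2913 ± 200 in MeWo Dox, 2776 ± 21.4 in SkMel28 control and 2501 ± 8.54 in SkMel28 Dox. For the small subunit the sums were 2947 ± 149, 2942 ± 370, 2303 ± 92.5 and 1930 ± 111 in the same order. Both subunits were lower with Dox in SkMel28, by 9.90% (large) and 16.2% (small), without overlap between control and Dox libraries. The ratio of large to small was 1.01 ± 0.031 in MeWo control and 1.21 ± 0.049 in SkMel28 control, and every SkMel28 library, with or without Dox, had a higher ratio than every MeWo library. Since genes with the highest levels weigh most in such sums, the median change per library was also taken. Relative to the control mean of its line, the median member stood at −0.15, −0.04 and −0.02 (log2) in the 3 MeWo Dox libraries and at −0.15, −0.19 and −0.12 in the 3 SkMel28 Dox libraries.

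**Figure D1:**
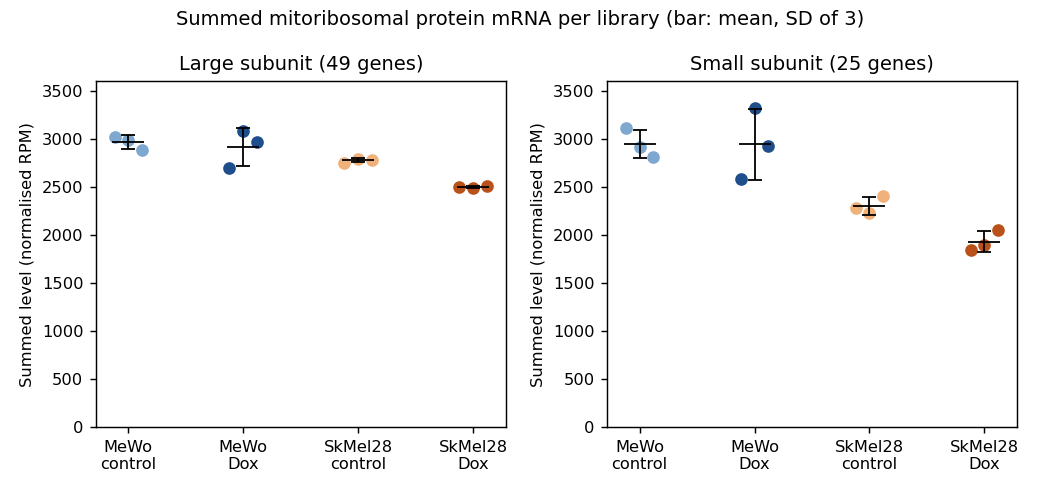
Summed level (normalised RPM, linear axis from 0) of the 49 large-subunit and 25 small-subunit genes in each library, with points for libraries and bars for the mean and SD of 3. Control and Dox libraries overlapped in MeWo, and in SkMel28 all Dox libraries lay below all controls for both subunits.

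The first comparison asks which members changed when the hairpin was induced in MeWo. With Dox 7 members were lower, namely MRPL18 and MRPL21 of the bacterial-type large subunit, MRPL48 and MRPL44 of the mitochondria-specific large subunit, and MRPS35, MRPS23 and MRPS33 of the mitochondria-specific small subunit. Called here means an adjusted p under 0.05 in limma, with Benjamini-Hochberg adjustment over all 12616 genes. The 7 are 9.09% of the members, where 16.7% of all genes were called, 8.58% higher and 8.12% lower, so that the share called lower was close to that of all genes. By limma 0 members were called higher, against 1 in edgeR and 3 in DESeq2, and 18 members had an unadjusted p under 0.05 in either direction. The median change over the members was −0.09 (log2) against 0 over all genes, and 46 of 77 (59.7%) were negative against 49.9% of all genes.

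MRPL18, which belongs to the central protuberance of the large subunit, read 46.1, 59.4 and 54.4 in MeWo control and 38.3, 24.3 and 32.9 with Dox. Every Dox library was below every control. MRPL18 fell by 0.74 log2 units (SE 0.18, adjusted p = 0.00742), or by 40.3% in its mean. MRPL21 read 99.6, 110 and 95.2 in control and 83.6, 62.9 and 56.9 with Dox. Its groups did not overlap either, with Dox replicate 1 the nearest to the controls, and it fell by 0.59 (SE 0.18, adjusted p = 0.0334). MRPL9, also of a bacterial family, had the lowest change of all members in MeWo but did not pass the test. It read 30.2, 29.5 and 27.5 in control and 30.004, 14.02 and 10.8 with Dox, with replicate 1 inside the control range, and the difference was −0.77 (SE 0.26, adjusted p = 0.0555). Without that library the difference was −1.17 and was called (adjusted p = 0.00012).

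Among the large-subunit proteins found only in mitochondria, MRPL48, another protein of the central protuberance, read 73.1, 87.0 and 75.1 in MeWo control and 61.0, 46.2 and 35.9 with Dox. The groups did not overlap, and MRPL48 fell by 0.73 (SE 0.19, adjusted p = 0.0151). MRPL44, whose fold is related to RNase III, read 35.4, 35.7 and 32.4 in control and 22.02, 17.8 and 26.8 with Dox. All 3 Dox libraries were again lower than the controls, and it fell by 0.63 (SE 0.16, adjusted p = 0.0111).

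For the small subunit, MRPS35 read 23.04, 25.3 and 23.97 in MeWo control and 21.1, 12.5 and 13.2 with Dox, and it fell by 0.63 (SE 0.18, adjusted p = 0.0262). MRPS23 read 50.7, 45.5 and 57.7 in control and 42.1, 29.9 and 31.5 with Dox, and it fell by 0.57 (SE 0.16, adjusted p = 0.0228). In both genes the groups did not overlap and Dox replicate 1 was the Dox library nearest to the controls. MRPS33, the member with CACGTG in the window printed above, read 97.9, 96.0 and 105 in control and 84.3, 73.1 and 66.7 with Dox. It was lower in all 3 Dox libraries and fell by 0.41 (SE 0.12, adjusted p = 0.0232), the smallest change among the 7. In the mitochondria-specific small subunit 3 of 10 members were called lower, against 0 of 15 in the universal and bacterial families of that subunit, where 8.12% of all genes were called lower. The difference between these shares was not tested.

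Among members with a group mean of at least 10, those with the highest changes in MeWo did not pass the test with all 3 Dox libraries. They did without Dox replicate 1. MRPS18B, a small-subunit protein, read 291, 225 and 242 in control and 229, 508 and 429 with Dox, a difference of 0.55 (SE 0.20, adjusted p = 0.0760). Dox replicates 2 and 3 were above all controls and replicate 1 was among them. MRPS18A, its relative in the large subunit, read 32.8, 29.1 and 31.4 in control and 31.3, 65.9 and 45.7 with Dox, a difference of 0.54 (SE 0.20, adjusted p = 0.0738). MRPL24 differed by 0.39 (adjusted p = 0.0624), MRPL14 by 0.39 (adjusted p = 0.139) and MRPS11 by 0.44 (adjusted p = 0.163). In MRPS18A and MRPS11, too, only Dox replicates 2 and 3 were above the controls. Without Dox replicate 1, all 5 were called higher, MRPS18B at 0.89 (adjusted p = 1.6e-05), MRPS18A at 0.80 (adjusted p = 0.00072), MRPS11 at 0.67 (adjusted p = 0.00995), MRPL24 at 0.53 (adjusted p = 0.00181) and MRPL14 at 0.51 (adjusted p = 0.0308). On the other strand MRPS18B overlaps PPP1R10, MRPS18A overlaps RSPH9 and MRPL14 overlaps TMEM63B (GENCODE release 44). Among members named elsewhere, MRPL9 (OAZ3), MRPS25 (NR2C2), MRPS27 (PTCD2), MRPL2 (KLC4) and MRPS7 (GGA3, MIF4GD) overlap a listed gene there too. So do MRPL40 (C22orf39, HIRA) and MRPL37 (CYB5RL, SSBP3), and MRPL53 overlaps CCDC142 on the same strand. The strand setting of the counting is not given in the sources used here, so reads of these pairs cannot be told apart.

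By non-overlap of control and Dox libraries alone, 17 members were lower and 2 higher in MeWo, where 14.7% of all genes were lower and 14.1% higher. Leaving out a MeWo control library gave 3 members each time, where 12, 10.2 and 10.5% of all genes were called, and leaving out Dox replicate 2 or 3 gave 2, where 11.7 and 10.3% were, with MRPL18 the only one called in every such fit. Without Dox replicate 1, limma called 24 members, 13 lower and 11 higher, including all 7 above with falls by 0.50 (MRPS33) to 0.92 (MRPL48), where 31% of all genes were called. When the fit used the 6 MeWo libraries only, it called 0 members, with 13 at an unadjusted p under 0.05, and 6.44% of all genes. Scaled to the spike-ins, the median of all genes in MeWo moved up by 0.22 (log2), and 7 members were called higher, among them MRPS18A, MRPS18B, MRPL14, MRPL24 and MRPS11, and 0 lower, where 2097 of the 12616 genes were called higher and 383 lower. With this scaling the median change of the members was 0.18, with 20 of 77 negative, and the 7 members called lower above stood between −0.48 (MRPL18) and −0.14 (MRPS33) without passing the test.

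**Figure D2:**
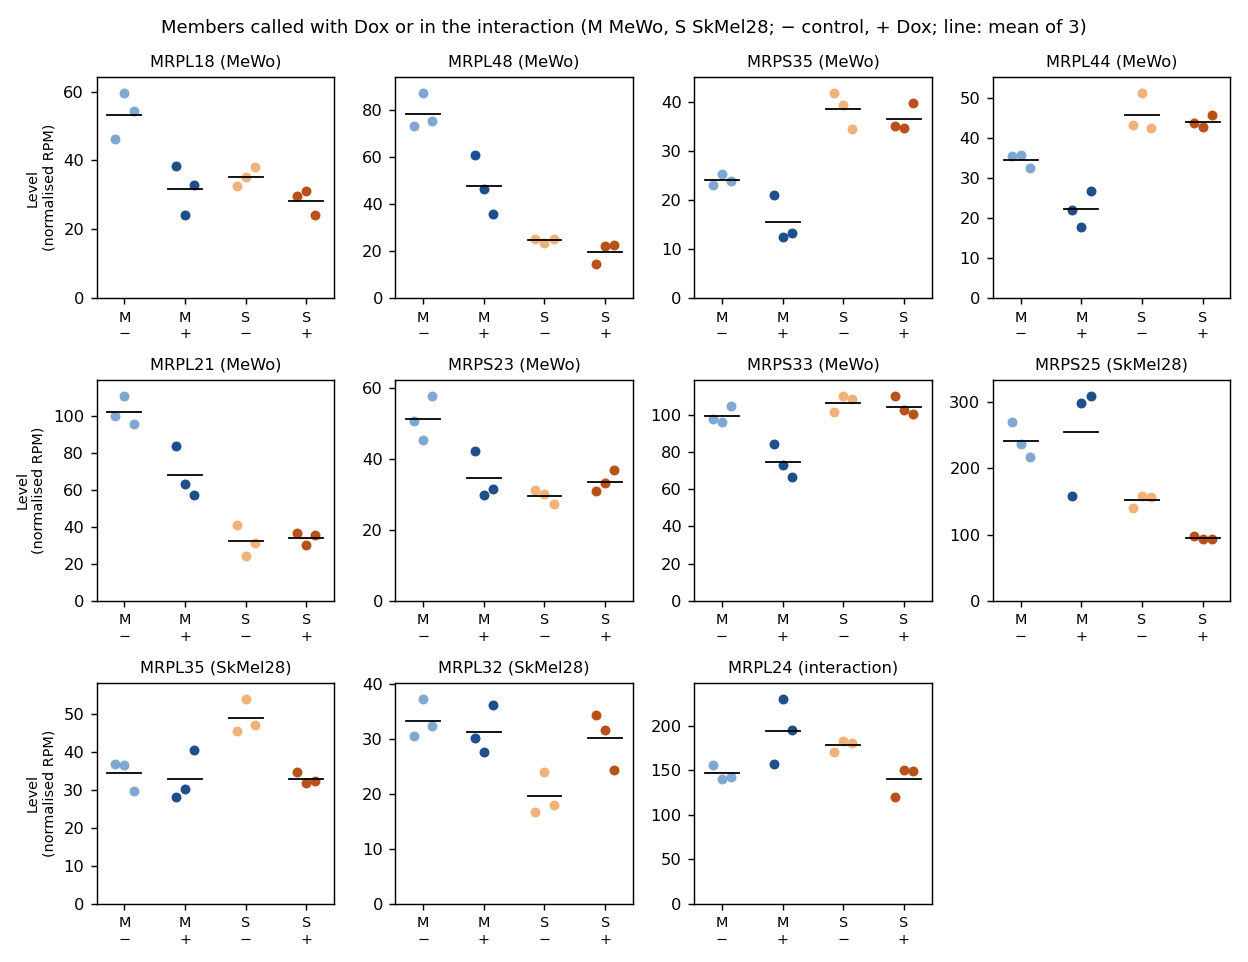
Level (normalised RPM, linear axes from 0) of the 11 members called with Dox in MeWo, with Dox in SkMel28 or in the difference between the lines, with 1 point per library and a line at the mean of 3. The 7 MeWo panels show Dox libraries below controls in MeWo, and MRPL24 lies higher with Dox in MeWo and lower in SkMel28.

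The second comparison asks the same of SkMel28. More members were lower than higher with Dox, and 3 passed the test, MRPS25 and MRPL35 lower and MRPL32 higher. These are 3.90% of the members, where 10.9% of all genes were called, 5.88% higher and 5.04% lower. The median change was −0.18 (log2) over the members against 0.0029 over all genes, and 57 of 77 (74.0%) were negative against 49.1% of all genes. At an unadjusted p under 0.05 there were 18 members. Control and Dox libraries did not overlap in 25 members that were lower and 3 that were higher, where all genes gave 16.1% in each direction.

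MRPS25, a small-subunit protein of mitochondria only, read 141, 158 and 156 in SkMel28 control and 98.3, 93.2 and 93.7 with Dox. The Dox libraries lay close together and well under the controls, and MRPS25 fell by 0.67 (SE 0.19, adjusted p = 0.0278), or by 37.3%. In MeWo it read 270, 236 and 217 in control and 159, 299 and 309 with Dox, with replicate 1 below and the other Dox libraries above the controls, a difference of 0.03 (SE 0.19, adjusted p = 0.947). Without that replicate the MeWo difference was 0.34 and was called (adjusted p = 0.0219). MRPS25 overlaps NR2C2 on the other strand. Its SkMel28 call held in 15 of 22 alternative settings (adjusted p up to 0.0992), but not where a SkMel28 library was left out. MRPL35, of a bacterial family in the large subunit, read 45.7, 53.9 and 47.1 in SkMel28 control and 34.7, 31.8 and 32.3 with Dox. Its groups did not overlap, and it fell by 0.55 (SE 0.16, adjusted p = 0.0345). The MRPL35 call held in 13 of 22 (adjusted p up to 0.125), again not where a SkMel28 library was left out.

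MRPL32 was the only member called higher with Dox in either line. It is a zinc-binding protein whose cleavage by a protease of the inner membrane is a step in the assembly of the ribosome, and its window printed above holds CATGTG on the other strand. It read 16.7, 24.1 and 18.01 in SkMel28 control and 34.4, 31.8 and 24.5 with Dox. All Dox libraries were above the controls, the nearest pair by little, and MRPL32 rose by 0.60 (SE 0.18, adjusted p = 0.0446), a call that held in 10 of 22 alternative settings (adjusted p up to 0.23). In MeWo it read 30.5, 37.3 and 32.4 in control and 30.3, 27.7 and 36.2 with Dox with overlapping groups.

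MRPL12, which forms the flexible stalk that engages translation factors, had the lowest change in SkMel28, at the edge of the threshold. It read 20.05, 29.8 and 21.8 in control and 16.0, 11.4 and 12.7 with Dox. The groups did not overlap, and the difference was −0.79 (SE 0.25, adjusted p = 0.05003, not called). MRPL10, the base of the stalk, differed by −0.23 (SE 0.15, adjusted p = 0.394), and MRPL53 by −0.56 (SE 0.19, adjusted p = 0.0615). MRPL28 differed by −0.43 (SE 0.21, adjusted p = 0.232), and its Dox libraries were all below the controls. MRPS18A read 53.2, 59.3 and 49.8 in control and 73.9, 71.9 and 89.1 with Dox, a difference of 0.52 (SE 0.20, adjusted p = 0.110). Its Dox libraries were all above the controls. Among members with a group mean of at least 10, MRPL16 at 0.42, MRPS28 at 0.37 and MRPS23 at 0.18 followed, with overlapping groups.

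The shift was spread over the classes. Negative changes were found in 35 of 49 large-subunit and 20 of 25 small-subunit members in SkMel28, with medians of −0.17 and −0.19 (log2). In MeWo the same classes had 29 of 49 and 16 of 25 negative, with medians of −0.09 and −0.13. Scaled to the spike-ins, the median of all genes in SkMel28 moved by −0.08 and that of the members was −0.27, with 62 of 77 negative. Leaving out 1 SkMel28 library at a time gave 0 members without control replicate 1, control replicate 3, Dox replicate 1 or Dox replicate 2, 1 without control replicate 2 and 3 without Dox replicate 3, of which only MRPL32 was among the 3 above, where 6.21 to 8.27% of all genes were called. Without MeWo Dox replicate 2 there were 7, where 12.9% of all genes were called, and without MeWo Dox replicate 1, which enters the shared estimate of the spread, 12 members were called, 10 of them lower, where 16.2% of all genes were called.

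**Figure D3:**
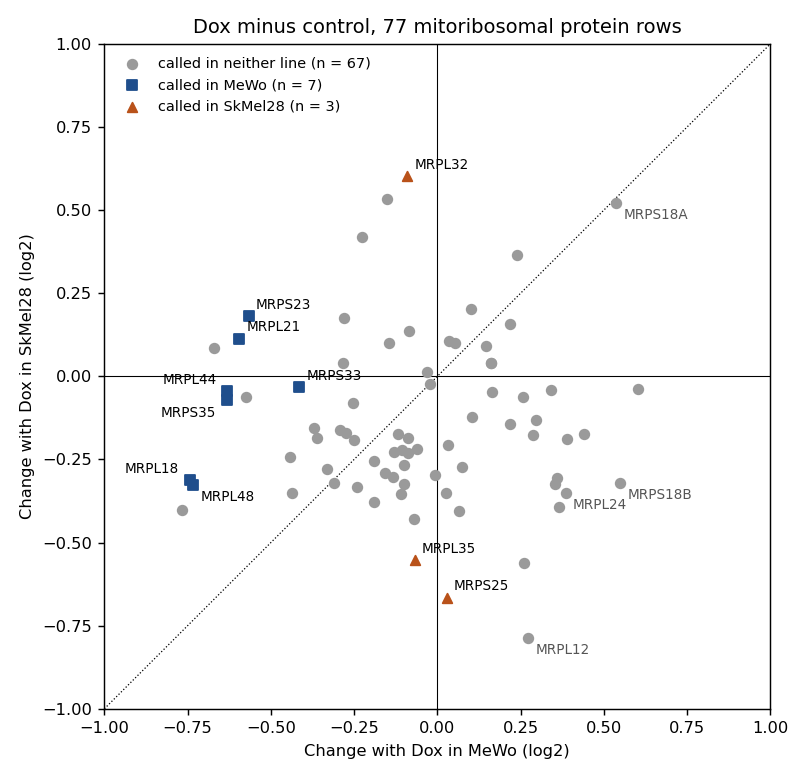
Change with Dox (log2) of the 77 members in MeWo (x axis) and SkMel28 (y axis), with the dotted line at equal change. Members called in MeWo (7) and in SkMel28 (3) are different genes, and most points lie below 0 on the y axis (57 of 77).

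No member was called in both lines, where 7 were called in MeWo and 3 in SkMel28. The share of all genes called in both lines is not given here, so this absence is not read as particular to the members. The next comparison asks whether the change with Dox differed between the lines, as the MeWo change minus the SkMel28 change. MRPL24, whose family sits at the exit of the peptide tunnel, was the 1 member called (1.30%), where 7.09% of all genes were called, 3.71% above and 3.38% below 0. It read 157, 141 and 143 in MeWo control, 157, 230 and 195 in MeWo Dox, 170, 183 and 181 in SkMel28 control and 121, 151 and 150 in SkMel28 Dox. Dox libraries were above all controls in MeWo, replicate 1 by little, and below all controls in SkMel28. The difference of changes was 0.74 (SE 0.19, adjusted p = 0.0297), while neither line's own change was called (0.39, adjusted p = 0.0624, and −0.35, adjusted p = 0.120). The call was lost without MeWo control replicate 2 or 3, MeWo Dox replicate 2 or 3, SkMel28 control replicate 2 or 3, or SkMel28 Dox replicate 1, and without MeWo Dox replicate 1 there were 19 members called, 13 above 0 and 6 below, where 24.7% of all genes were.

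Other members had changes that pointed apart without passing this test. The furthest from 0 at a group mean of at least 10 are given. Those above 0 were MRPL12 at 1.06 (SE 0.35, adjusted p = 0.0722), MRPS18B at 0.87 (SE 0.29, adjusted p = 0.0740), MRPL53 at 0.82 (SE 0.26, adjusted p = 0.0634) and MRPL2, a core protein near the peptidyl transferase site, at 0.76 (SE 0.34, adjusted p = 0.173). Those below 0 were MRPS23 at −0.75 (SE 0.23, adjusted p = 0.0550), MRPL21 at −0.71 (SE 0.26, adjusted p = 0.0992), MRPL32 at −0.69 (SE 0.26, adjusted p = 0.110), MRPS31 at −0.68 (SE 0.58, adjusted p = 0.484) and MRPL16 at −0.65 (SE 0.25, adjusted p = 0.120). Of the 7 members that fell in MeWo, 5 had SkMel28 changes between −0.07 and 0.18, and MRPL18 and MRPL48 stood at −0.31 and −0.33 there, none of them called. For MRPS18A the changes were 0.54 and 0.52, and their difference was 0.01 (SE 0.28, adjusted p = 0.982).

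The changes were also set beside the promoter letters. The 9 members with CACGTG had a median change of −0.10 (log2) in MeWo and −0.04 in SkMel28, and the 58 without it −0.09 and −0.18. The 3 with TCACGTGA, printed above, were not called in either line. MRPL37 changed by −0.10 in MeWo and −0.27 in SkMel28, MRPS18C by −0.25 and −0.08, and MRPS2 by −0.33 and −0.28. The 29 members with CCGGAAG had medians of −0.11 and −0.23 against −0.04 and −0.15 in the 38 without. These are descriptions of overlapping sets and were not tested.

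The last comparison sets the 2 lines against each other without Dox. Here members differed widely, 16 higher and 26 lower in SkMel28, or 42 of 77 (54.5%), where 51.4% of all genes were called, 26.6% higher and 24.8% lower. The changes ran from −1.80 to 1.46 (log2) with a median of −0.09. Control libraries of the 2 lines did not overlap in 19 members that were higher in SkMel28 and 33 that were lower, where 31.6 and 30.5% of all genes did not.

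Lowest in SkMel28 was MRPS31, at 13.0, 20.2 and 19.8 in MeWo control against 7.80, 6.66 and 1.15 in SkMel28 control, a difference of −1.80 (SE 0.41, adjusted p = 0.00140) resting on 3 to 61 reads per library. Its pseudogene MRPS31P5, also on chromosome 13, differed by −1.07 (SE 0.27, adjusted p = 0.00304). MRPL21 read 99.6, 110 and 95.2 against 40.9, 24.1 and 31.0, a difference of −1.67 (SE 0.18, adjusted p = 7.38e-07). The lines did not overlap in any of these genes.

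Next in order came MRPL48 at −1.64 (SE 0.19, adjusted p = 1.89e-06), MRPL38 at −1.61 (SE 0.15, adjusted p = 1.14e-07) and MRPL57 at −1.60 (SE 0.12, adjusted p = 5.55e-09). MRPL38 read 113, 90.9 and 85.5 in MeWo control and 29.5, 28.9 and 34.1 in SkMel28 control, and MRPL57 read 146, 147 and 153 against 52.1, 47.0 and 46.4. MRPL48 and MRPL38 both belong to the central protuberance. MRPL40 and MRPL46, which belong to it as well, went the other way. MRPL40 read 32.5, 35.4 and 35.3 in MeWo control and 90.8, 69.2 and 91.2 in SkMel28 control, a difference of 1.25 (SE 0.15, adjusted p = 3.25e-06), and MRPL46 differed by 0.87 (SE 0.20, adjusted p = 0.00124). Proteins of 1 region of the subunit thus had mRNA that differed between the lines in opposite directions, without overlap between the lines.

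Highest in SkMel28 was MRPL17, at 48.95, 51.7 and 47.9 in MeWo control against 144, 154 and 118 in SkMel28 control, a difference of 1.46 (SE 0.12, adjusted p = 2.50e-08). With Dox it read 49.2, 48.1 and 48.8 in MeWo and 134, 140 and 133 in SkMel28, changes of −0.02 in each line, so that its level set the lines apart and not the Dox state. MRPS11 differed by 1.20 (SE 0.21, adjusted p = 0.000127) and MRPL13 by 0.87 (SE 0.19, adjusted p = 0.00113). MRPL45, which anchors the ribosome to the inner membrane near the tunnel exit, differed by −0.63 (SE 0.13, adjusted p = 0.000609), MRPL10 of the stalk by −0.93 (SE 0.15, adjusted p = 5.35e-05) and MRPS30 by −0.62 (SE 0.17, adjusted p = 0.00664). MRPS36, the member that is no ribosomal protein, differed by −0.75 (SE 0.19, adjusted p = 0.00333).

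**Figure D4:**
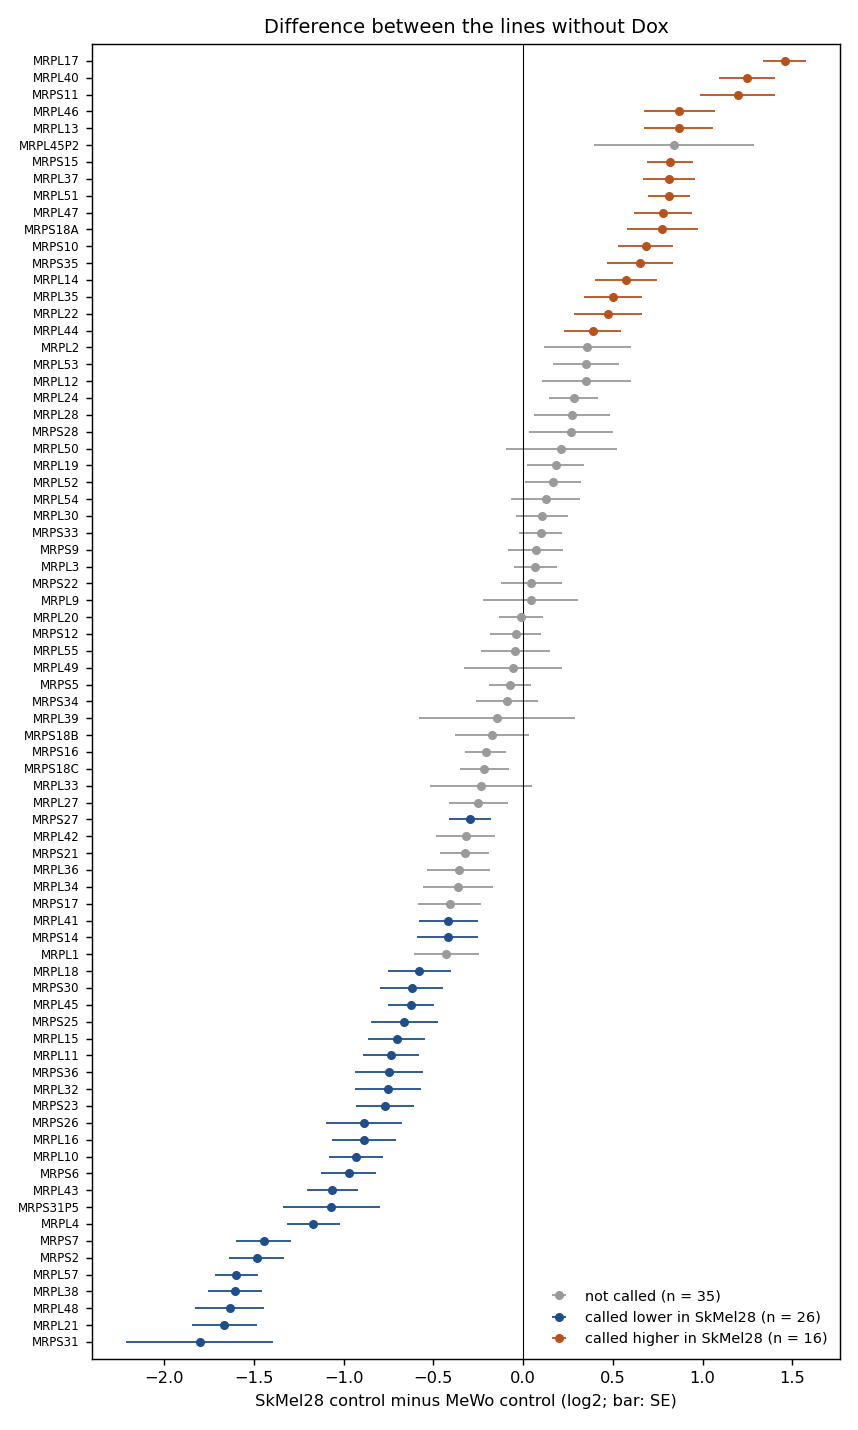
SkMel28 control minus MeWo control (log2) for each of the 77 members in order, with bars for the SE. Members called higher in SkMel28 (16) and lower (26) stand at the ends, from MRPL17 at 1.46 to MRPS31 at −1.80.

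Members that differed most between the lines often lay among genes that differed the same way. For each member the median line difference of the listed genes within 1 Mb was taken, other members left out, where at least 5 such genes were present (72 members, GENCODE release 44). Around MRPL38 (chr17:75898644-75905093, minus strand) the 42 neighbours had a median of −1.59 and 37 were called lower in SkMel28. MRPS7, within 1 Mb on chromosome 17 and therefore sharing many of these neighbours, read 263, 253 and 234 in MeWo control and 90.5, 92.0 and 90.8 in SkMel28 control, with 27 of 32 neighbours called lower. Around MRPL48 (chr11:73787872-73865133, plus strand) 16 of 19 neighbours were called lower, around MRPS31 (chr13:40729128-40771190, minus strand) 9 of 10, and around MRPS2 (chr9:135499984-135504673, plus strand) 10 of 16.

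MRPL46 (chr15:88459477-88467390, minus strand) and MRPS11 (chr15:88467453-88480776, plus strand) lie head to head and share 10 neighbours, of which 9 were called higher in SkMel28, with a median of 1.34. Around MRPL17 (chr11:6680385-6683340, minus strand) 10 of 14 were called higher. MRPL21 and MRPL57 differed from their surroundings in size but not in sign, with −1.67 against a neighbour median of −0.23 and −1.60 against −0.51. Some called members went against the sign of their neighbours. MRPL10 was one, with −0.93 against 0.84, and 16 of its 28 neighbours were called higher in SkMel28. Over the 72 members the line difference of the member and that of its neighbours had Pearson's r = 0.650 and Spearman's rho = 0.619, and 32 of 39 called members had the sign of their neighbours. The same measure for the change with Dox gave r = 0.161 and rho = 0.139 in MeWo, and r = −0.011 and rho = 0.155 in SkMel28. Members called or not shared the sign of their neighbours in 37 and 44 of 72, against 53 for the line difference. Members share neighbours and libraries, and the same values over all listed genes are not given here. The values for the members are therefore descriptions and are not read as particular to them.

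**Figure D5:**
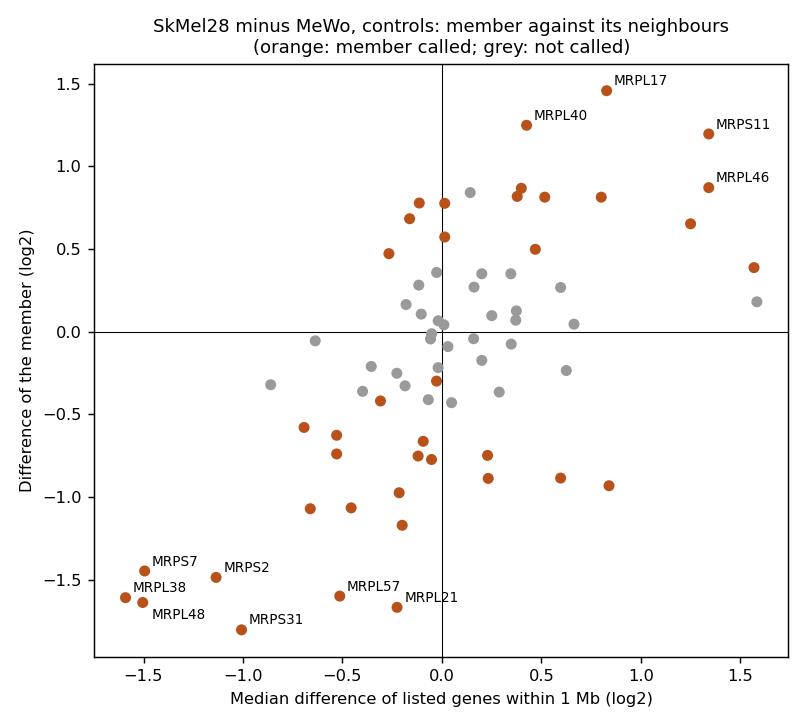
Line difference (SkMel28 control minus MeWo control, log2) of each of 72 members (y axis) against the median difference of the listed genes within 1 Mb (x axis), orange where the member was called. MRPL38, MRPS7, MRPL48, MRPS2 and MRPS31 lie low on both axes, and MRPL46, MRPS11 and MRPL17 lie high on both.

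Other genes of mitochondrial translation and biogenesis were read from lists that hold no member (114 genes listed). In MeWo 1 was called higher and 12 lower with Dox (11.4%), and in SkMel28 0 higher and 6 lower (5.26%). Both shares were below the 16.7 and 10.9% of all genes called in either direction. Called lower alone were 8.12 and 5.04% of all genes. Without MeWo Dox replicate 1 the counts were 39 and 12 of 114, where 31 and 16.2% of all genes were called. By list, called genes in MeWo numbered 0 of 6 ribosome subunits with other symbols, 3 of 26 assembly and rRNA modification factors, 4 of 16 translation factors, 2 of 20 aminoacyl-tRNA synthetases, 0 of 17 genes of mtDNA replication, transcription and RNA processing, 2 of 18 import and structure genes and 2 of 11 regulators. In SkMel28 they numbered 1, 1, 0, 2, 0, 1 and 1 in the same order.

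NARS2, the asparaginyl-tRNA synthetase of mitochondria, was called lower in both lines. It read 54.1, 65.3 and 70.0 in MeWo control and 31.9, 17.8 and 28.8 with Dox, and 29.5, 25.1 and 28.4 in SkMel28 control and 22.6, 14.7 and 10.9 with Dox. Dox libraries were below the controls in each line, with falls by 1.27 (SE 0.24, adjusted p = 0.00118) and by 0.80 (SE 0.24, adjusted p = 0.0374). TIMM50, a receptor of the inner-membrane import channel, was lower in both as well, falling by 0.62 (adjusted p = 0.00243) and by 0.41 (adjusted p = 0.0486). The SkMel28 call held in 12 of 22 alternative settings for NARS2 (adjusted p up to 0.164) and in 8 of 22 for TIMM50 (adjusted p up to 0.18). All 20 aminoacyl-tRNA synthetase genes had a negative change in SkMel28, where 49.1% of all genes did, with a median of −0.20, and 10 of 20 did in MeWo, with a median of −0.05. EARS2 fell by 0.61 in SkMel28 (adjusted p = 0.0462), a call that held in 10 of 22.

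Among ribosome subunits with other symbols, assembly factors and translation factors, each gene named here was called in 1 line only. In MeWo, GUF1, a translational GTPase, fell by 1.02 (adjusted p = 0.00985), LRPPRC, which protects mitochondrial mRNAs, by 0.76 (adjusted p = 0.00537), FASTKD2, which binds the large-subunit rRNA, by 0.70 (adjusted p = 0.0112), NSUN4, a methyltransferase of the small-subunit rRNA, by 0.57 (adjusted p = 0.0404, called in 11 of 22 alternative settings) and the elongation factor GFM1 by 0.50 (adjusted p = 0.0307). DHX30, an RNA helicase of ribosome assembly, rose by 0.47 (adjusted p = 0.0335). In SkMel28, TFB1M, the dimethyltransferase of the small-subunit rRNA, fell by 0.86 (adjusted p = 0.00488) and PTCD3, a small-subunit protein without an MRPS symbol, by 0.48 (adjusted p = 0.0248).

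PPARGC1A, the coactivator of mitochondrial biogenesis and a known MITF target, read 52.4, 49.7 and 51.5 in MeWo control and 22.3, 23.5 and 19.0 with Dox. It was lower in all 3 Dox libraries and fell by 1.21 (SE 0.30, adjusted p = 0.0103). In SkMel28 it lay between 0.334 and 2.08 in all 6 libraries. TOMM20, a receptor of the outer membrane, read 177, 214 and 188 in MeWo control and 156, 128 and 143 with Dox, and 99.1, 91.7 and 92.0 in SkMel28 control and 132, 109 and 110 with Dox. In MeWo all Dox libraries were below the controls and it fell by 0.43 (adjusted p = 0.0220). In SkMel28 all Dox libraries were above the controls, but the difference of 0.31 was not called (adjusted p = 0.132). The changes differed by −0.74 (SE 0.17, adjusted p = 0.0163).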

How the data were processed

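Libraries of mRNA 3′ ends (QuantSeq Forward) were made from 12 samples, 3 in each of 4 groups taken from the sample titles. Per the labels the reads were handled with FastQC 0.11.7, cutadapt 2.8, STAR 2.5.1b and edgeR on build hg38; the counting tool, its strand setting and the annotation are not given in the sources used here. The authors deposited a normalised signal per gene, reads divided by an effective library size and scaled as in RPM, for 12683 features, of which 67 are spike-ins and 12616 were tested; every feature has at least 1 in at least 3 libraries. Low values were whole multiples of 1 step per library, and 100% of values came out whole within 0.01 of a read, which gave the read totals. No column of fold changes or p-values was present and 0 columns of other samples were found.

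log2(value + 1) was fitted with limma 3.58.1 in R 4.3.3 (4 group means over all 12 libraries, mean-variance trend, two-sided, Benjamini-Hochberg over 12616 genes, threshold 0.05). The study's methods name edgeR; because the table holds normalised values, edgeR 4.0.16 (quasi-likelihood) and DESeq2 1.42.0 on recovered reads were alternatives. Fold changes of low genes are understated on this scale. The fits were tested on simulated data.

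Members were named by a rule: the 5 highest and 5 lowest changes per comparison at a group mean of at least 10, calls in both lines or in the difference between lines, the 5 highest and lowest levels, and members listed for their role; up to 3 called genes per companion list and line were named, except 1 that is not reported here. The members, lists and tests were chosen with earlier results of these data known, and GADD45GIP1, MRPL37, MRPS18C, MRPS2, MRPS7 and the neighbour windows after their values were seen. All 77 symbols matched GENCODE release 44. Other alternatives were upper-quartile and spike-in scaling, pseudocounts of 0.1 and 5, a filter (5 in at least 3 libraries), no trend, a replicate block, the 2 groups compared alone and leaving out each library.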

Additional observations from a re-analysis of the deposited data

Results flagged for a closer look

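In 3 genes the change with Dox differed between the lines by the interaction term of limma. They were 1 of the 77 members (1.30%) and 2 of the 114 companion genes (1.75%). Both shares were below the 7.09% of all genes called. For MRPL24 the MeWo change minus the SkMel28 change was 0.74 (log2), for TOMM20 −0.74, and for GADD45GIP1, a large-subunit protein without an MRPL symbol that was chosen after its values were seen, 0.97 (SE 0.27, adjusted p = 0.0375). The call held in 10 of 21 alternatives for GADD45GIP1 (adjusted p up to 0.105) and in 17 of 21 for TOMM20 (adjusted p up to 0.411). GADD45GIP1 read 65.9, 66.4 and 61.9 in MeWo control, 60.0, 117 and 86.7 in MeWo Dox, 71.8, 89.8 and 79.7 in SkMel28 control and 44.8, 56.5 and 59.5 in SkMel28 Dox. Its Dox libraries were all below the controls in SkMel28, and in MeWo 2 of 3 were above them. Neither line's own change in GADD45GIP1 was called (adjusted p = 0.177 and 0.0583).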

How the results depend on the processing

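Changes of the genes that the naming rule took kept their sign in every alternative they were recomputed under. Of other changes given, MRPL17 and MRPS25 in MeWo changed sign in 2 and 3 of 22, MRPL17 in SkMel28 in 2 of 22, MRPL37 and MRPS18C in MeWo with spike-in scaling, and the difference between the changes of MRPS18A in 7 of 21. The 10 members named for the difference between the lines stayed called in all 22 alternatives. For MeWo Dox, members called higher (0) came to 1 in edgeR, 3 in DESeq2 and 7 with spike-in scaling, and members called lower (7) to 0 with spike-in scaling and 0 with only the 2 groups compared. For SkMel28 Dox, members called higher (1) came to 0 with spike-in scaling, with a pseudocount of 0.1, without the trend and with the replicate block, and members called lower (2) to 4 in edgeR, 4 in DESeq2, 0 without the trend, 1 with the replicate block and 5 with only the 2 groups compared. For the difference between the changes, members above 0 (1) came to 2 in edgeR, 4 in DESeq2, 10 with spike-in scaling and 0 without the trend, and members below 0 (0) to 1 with upper-quartile scaling and 1 with a pseudocount of 5. Companion genes came to 3 in MeWo (from 13) with only the 2 groups compared and to 2 in SkMel28 (from 6) without the trend. Across these settings 6.44 to 19.7% of all genes were called in MeWo and 7.35 to 12.8% in SkMel28. For the difference between the changes the share of all genes was 4.39 to 12%. The cause of the moves was not tested beyond what each setting changes. Outside the fits with a library left out, 22 counts moved by over 1.5 times, given here, and 76 stayed within it.

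With 1 library left out at a time, members called higher and lower ranged from 0 to 11 and from 2 to 13 in MeWo, from 0 to 2 and from 0 to 10 in SkMel28, from 0 to 13 and from 0 to 6 for the difference between the changes, and from 12 to 18 and from 22 to 30 between the lines. Companion genes numbered 5 to 39 in MeWo, 2 to 12 in SkMel28. Of all genes, 10.2 to 31% were called in MeWo, 6.21 to 16.2% in SkMel28 and 3.56 to 24.7% for the difference between the changes. Between the lines this share is not given. The highest value of each range was reached without MeWo Dox replicate 1.

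Libraries with the same number did not deviate together (r = −0.18, −0.035 and 0.042 for the 3 numbers in MeWo, −0.046, 0.045 and 0.16 in SkMel28), so the number is not read as a pairing. With the replicate block 8 members were called in MeWo, the 7 and MRPL9, and MRPS25 alone in SkMel28. At 3 libraries a group, differences well above their standard error could still go uncalled. Examples are MRPL12 in SkMel28 (−0.79, SE 0.25) and MRPL9 in MeWo (−0.77, SE 0.26).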
